A study of Caenorhabditis elegans with 2 samples.

Results

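The cuticle collagen genes of Caenorhabditis elegans were examined for binding of the tagged homeodomain protein CEH-27. They were chosen by symbol from the Ensembl WBcel235 annotation, as the 156 protein-coding genes named col- and the 18 genes dpy-2, dpy-3, dpy-4, dpy-5, dpy-7, dpy-8, dpy-9, dpy-10, dpy-13, dpy-17, rol-6, rol-8, sqt-1, sqt-2, sqt-3, bli-1, bli-2 and lon-3. This gave 174 genes of 19973 nuclear protein-coding genes. No measured value entered that choice. The assay was ChIP-seq, which maps where a protein sits on DNA by sequencing the fragments pulled down with it. All samples came from OP139, a single strain whose inserted transgene wgIs139 supplies ceh-27 with a C-terminal TY1 EGFP 3xFLAG tag and unc-119(+) in the unc-119(ed3) background. Whole young adults aged 73 hours, with the sexes not separated, were used after synchronisation as starved L1 larvae. They formed 1 group of 2 biological replicates numbered 1 and 4. An anti-GFP antibody is named in the sample description, while the antibody field gives ceh-27. No other genotype, stage or treatment was analysed here, and the chromatin of all tissues was mixed, so that binding in few cells and weak binding in many cannot be told apart.

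The cuticle is a layered extracellular coat made by the epidermis and renewed at each moult. Its main proteins are small collagens with repeats of the form Gly-X-Y, which are trimmed, hydroxylated and crosslinked on their way into the coat. Their genes form a large family and are transcribed mainly in epidermal cells, in waves tied to the moulting cycle. Mutations in single members give dumpy (dpy), rolling (rol), squat (sqt), blistered (bli) or long (lon) animals.

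The deposited data were 4 lists of regions, each with a summit, a signal value on the authors' scale and a −log10 q value. The reproducible set held the 2328 regions that passed the authors' irreproducible discovery rate (IDR) threshold, and it was identical to the 2328 strongest regions of the pooled list. The pooled list and the list of each replicate held 30000 regions, most of them weak. Signal in the reproducible set ran from 91.7 to 1263 with a median of 134.6, while the whole pooled list had a median of 38.7 and a lowest value of 25.6. The replicate lists spanned signals of 13.7 to 455 in replicate 1 and 18.1 to 847 in replicate 4. Signals were compared only within a list. No read counts came with the regions, so sequencing depth is not known here. A promoter window covered the 1000 bp before and the 200 bp after each annotated 5′ end, and a gene counted as found when a summit fell in its window.

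Few collagen promoters reached the reproducible set. Of the 174 genes, 4 (2.3%) had a reproducible summit in the window, against 8.47% of all protein-coding genes. They were col-38, col-71, col-185 and col-2. None of the 18 collagens named for a body-shape or blister phenotype was among them. The 101 bp centred on each summit are shown because these are the only collagen promoters in the set, together with bli-1, the strongest one outside it. Each is read 5′ to 3′ on the strand of the collagen gene, from the RefSeq WBcel235 assembly (ce11), and capitals mark the tRNA gene bases in the col-185 window and the sequence AAGTG, on either strand, in the others.
col-38, chrII:8569463-8569563, minus strand: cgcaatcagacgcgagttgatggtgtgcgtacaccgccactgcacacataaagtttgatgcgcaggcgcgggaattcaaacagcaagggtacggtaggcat
col-71, chrII:3502771-3502871, minus strand: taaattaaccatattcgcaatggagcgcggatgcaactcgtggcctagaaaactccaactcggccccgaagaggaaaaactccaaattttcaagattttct
col-185, chrX:13511949-13512049, minus strand: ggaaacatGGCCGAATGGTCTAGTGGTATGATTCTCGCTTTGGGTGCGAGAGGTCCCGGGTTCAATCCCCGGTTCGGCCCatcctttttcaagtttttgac
col-2, chrIV:10085815-10085915, minus strand: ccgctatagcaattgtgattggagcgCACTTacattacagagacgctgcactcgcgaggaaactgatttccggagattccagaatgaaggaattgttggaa
bli-1, chrII:10708508-10708608, plus strand: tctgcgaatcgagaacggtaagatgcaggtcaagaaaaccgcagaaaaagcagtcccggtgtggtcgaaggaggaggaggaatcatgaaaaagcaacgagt

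The col-38 region (build ce11, chromosome II, 8569453 to 8569589) had the highest signal of any collagen promoter. Its pooled signal was 225, rank 397 of the 30000 regions. In replicate 1 the matching region, with its summit within 100 bp, had a signal of 95.2 (rank 270), and in replicate 4 it had a signal of 127 (rank 565). The region lay between 2 divergent genes, with its summit 425 bp upstream of col-38 and 414 bp upstream of rpl-5, which encodes a protein of the large ribosomal subunit. The summit also lay in the annotated noncoding RNA genes F54C9.16 and F54C9.17. Its 101-bp window had a GC content of 54.5%, against a median of 49.5% at all reproducible summits, and held no AAGTG.

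The col-71 region (II, 3502649 to 3502992) had a pooled signal of 181 at rank 665. Its signal was 58.6 in replicate 1 (rank 910) and 119 in replicate 4 (rank 658). The summit was 251 bp upstream of col-71 and nearer to the divergent gene Y49F6B.2, at 147 bp upstream of it. The col-2 region (IV, 10085693 to 10086036) had a pooled signal of 126 at rank 1308, with 50.8 in replicate 1 (rank 1257) and 64.8 in replicate 4 (rank 2077). Its summit lay 414 bp upstream of col-2 and 272 bp upstream of the divergent gene ndc-80, which encodes a kinetochore protein. This window held the only AAGTG of the 4.

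The col-185 region (X, 13511827 to 13512170) was the single reproducible one whose window held no other protein-coding 5′ end. Its pooled signal was 170 at rank 759, with 57.8 in replicate 1 (rank 945) and 108 in replicate 4 (rank 794). The summit was 902 bp upstream of col-185 and inside the tRNA gene WBGene00014413 (X, 13511970 to 13512041). It also lay in the annotated noncoding RNA gene H06A10.3. Thus 3 of the 4 summits were nearer to another gene's 5′ end than to the collagen, and the remaining one was in a tRNA gene. Of all reproducible promoter summits, 4.1% lay within 200 bp of a tRNA gene. Among all pairs of a gene and a reproducible summit in its window, 74.3% had that gene as the nearest, against 1 of 4 for the collagens. When a summit counted only for the gene whose 5′ end is nearest, 1 collagen was left, against 6.28% of all genes.

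**Figure D1:**
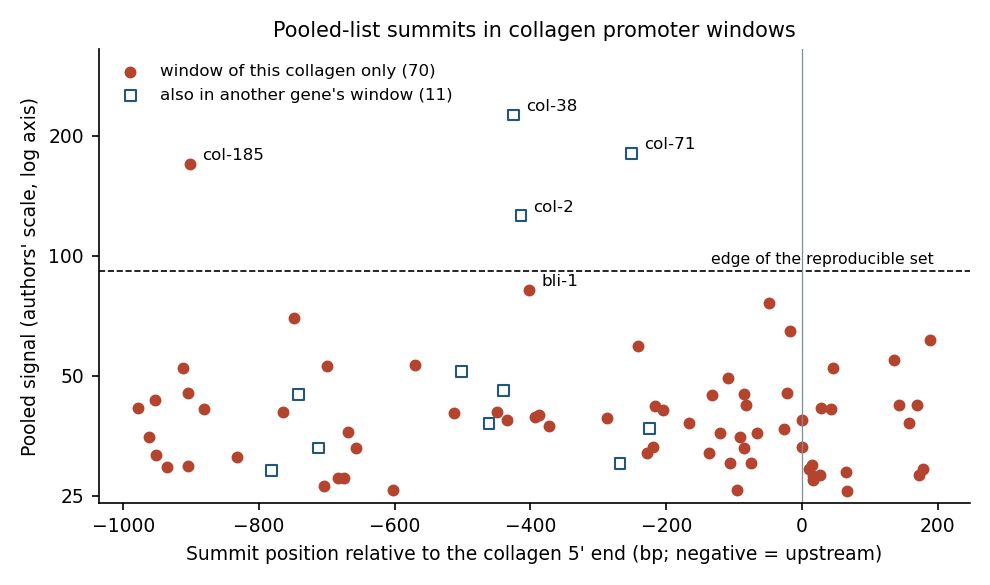
Position of each of the 81 pooled-list summits in a collagen promoter window relative to the collagen's 5′ end (x axis, bp) against pooled signal (y axis, authors' scale, log axis). The dashed line is the lowest signal of the reproducible set, 91.7, and squares mark the 11 summits that also lie in another gene's window, among them col-38, col-71 and col-2.

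Collagens with and without a divergent neighbour were counted apart. A protein-coding 5′ end on the opposite strand lay within 1000 bp upstream of 25 collagens, and 3 of these (12.0%) had a reproducible summit, against 19.2% of all genes with such a neighbour. Of the 149 collagens without one, 1 (0.671%) had a reproducible summit, namely col-185, against 6.0% of all genes without one. Collagens with a divergent neighbour were 14.4% of the family, and such genes were 18.8% of all genes. Whether the neighbour's own promoter accounts for the signal was not tested.

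Counted all together, the collagens drew level with other genes only over the whole pooled list. In the pooled list 69 of the 174 (39.7%) had a summit in the promoter window, against 39.2% of all genes. At intermediate depths the shares were 4.6% against 13.8% among the 5000 strongest regions (8 collagens), 9.77% against 20.2% among the 10000 strongest (17 collagens), and 27.0% against 30.5% among the 20000 strongest (47 collagens). Most collagens found therefore had their best promoter region late in the list. For 30 of them (17.2%, against 10.3% of all genes) it ranked from 10001 to 20000, and for 22 (12.6% against 8.65%) from 20001 to 30000. No summit was in the window of the other 105 genes. With a divergent neighbour, 32.0% of collagens and 53.4% of all genes had a pooled promoter summit, and without one 40.9% and 35.9%. Among genes with 1 annotated 5′ end the shares were 39.1% and 33.4%. The pooled signal over the 81 promoter summits had a median of 38.7, equal to that of the whole pooled list, and a median −log10 q of 0.505. The distance from a collagen 5′ end to the nearest reproducible summit anywhere had a median of 19032.5 bp, against 17633 bp for all genes, and the distance to the nearest pooled summit 590.5 bp against 1017 bp.

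**Figure D2:**
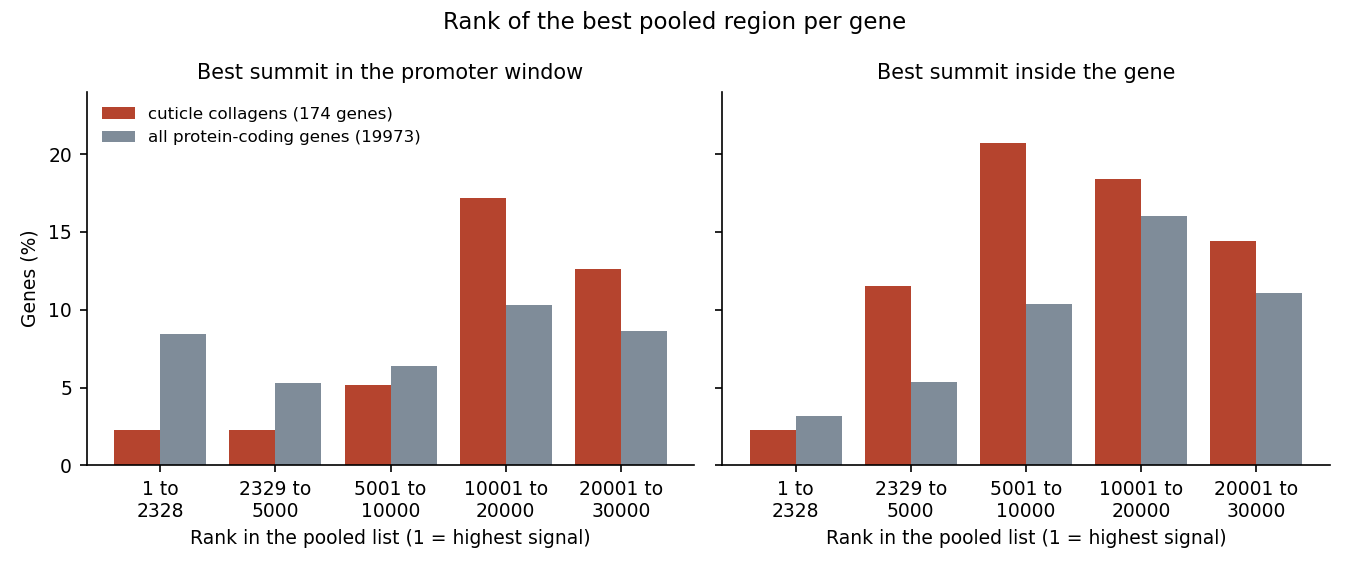
Share of genes (y axis, %) whose best pooled-list summit fell in each rank range (x axis, 1 is the highest signal), for the promoter window (left) and the gene itself (right). In the promoter window the collagens (174 genes) were at 2.3% in ranks 1 to 2328 and at 17.2% in ranks 10001 to 20000, where all 19973 genes were at 8.47% and 10.3%.

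The strongest collagen promoter outside the reproducible set was that of bli-1, which encodes a collagen of the struts, the columns that join the layers of the adult cuticle. Its region (II, 10708386 to 10708729) had a pooled signal of 81.9, rank 2888, and a −log10 q of 2.81, where the reproducible set went down to 2.78. The signal was 37.3 in both replicates, at rank 2463 in replicate 1 and rank 7534 in replicate 4. The summit lay 402 bp upstream of bli-1 and in an intron of dph-2, with no other protein-coding promoter window over it. It was the strongest region assigned to a collagen promoter alone, apart from the one in the tRNA gene. The next was col-150, with its summit 49 bp upstream and a pooled signal of 76.0 (rank 3324), 23.7 in replicate 1 and 55.4 in replicate 4. At col-63 the summit was 748 bp upstream, in 3′ untranslated sequence of the homeobox gene ceh-8, with a pooled signal of 69.8 and 70.7 in replicate 4. Replicate 1 had no col-63 region within 100 bp. At col-103 the summit was 17 bp upstream with a pooled signal of 64.7 and 24.7 in replicate 1, and replicate 4 had its region at another place in the window.

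After these came col-95, col-166, col-131, col-44, col-47 and col-94, with pooled signals from 52.3 to 61.6 and ranks from 5124 to 7614. Coding sequence held 4 of these 6 summits. It was the collagen's own at col-95 (189 bp downstream of the 5′ end) and col-131 (136 bp downstream), that of the neighbouring collagen col-9 at col-44, and that of dhc-4 at col-94. The col-166 summit was intergenic, 241 bp upstream, with 21.1 in replicate 1 and 37.2 in replicate 4. The col-47 summit was 700 bp upstream of one of its 5′ ends, in 5′ untranslated sequence of the overlapping gene col-46.

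Over all 81 promoter summits of the pooled list, 33.3% were in coding sequence, against 24.5% of all gene and summit pairs, 42.0% were intergenic against 47.9%, and 12.3% were intronic against 18.3%. The summit lay upstream of the collagen's 5′ end in 76.5% of cases, against 82.1%, at a median distance of 229 bp from it, against 277 bp. Another gene's window held 11 of the 81 summits (13.6%), against 26.2% of all pairs. AAGTG, the core sequence bound by NK-2 class homeodomains, occurred on either strand within 50 bp of 12 of the 81 summits (14.8%). It occurred at 24.8% of the 9363 distinct pooled promoter summits of all genes, and at 28.2% of the 1317 reproducible ones. GATAA, a form of the site of GATA factors, which include epidermal regulators, occurred at 17.3% and 15.4% of the collagen and all pooled promoter summits. The end of GATAA can overlap the start of AAGTG, and a match is a description of sequence.

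The replicates marked partly different promoters, among the collagens and among all genes. In the list of replicate 1, 69 collagens (39.7%) had a promoter summit, against 42.6% of all genes, and in that of replicate 4 there were 73 (42.0%), against 37.8%. Of these, 41 were in both lists (23.6%, against 26.4% of all genes). Replicate 1 alone held 28 (16.1% against 16.3%) and replicate 4 alone 32 (18.4% against 11.5%). With summits required within 100 bp of each other, 21 collagens (12.1%) were found in both, against 17.7% of all genes. Among the 2328 strongest regions of each replicate, 6 collagens were found each time, where all genes were at 8.47% in replicate 1 and 8.08% in replicate 4. Of these collagens 4 were shared, the same 4 as in the reproducible set. The others were col-8 and col-42 in replicate 1 and col-44 and col-63 in replicate 4. The signals of the 22 collagen promoter regions matched in both replicates had a Spearman's rho of 0.44, which runs across regions of the same 2 libraries. No promoter region in any of the 3 long lists was found for 71 collagens (40.8%, against 44.0% of all genes).

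**Figure D3:**
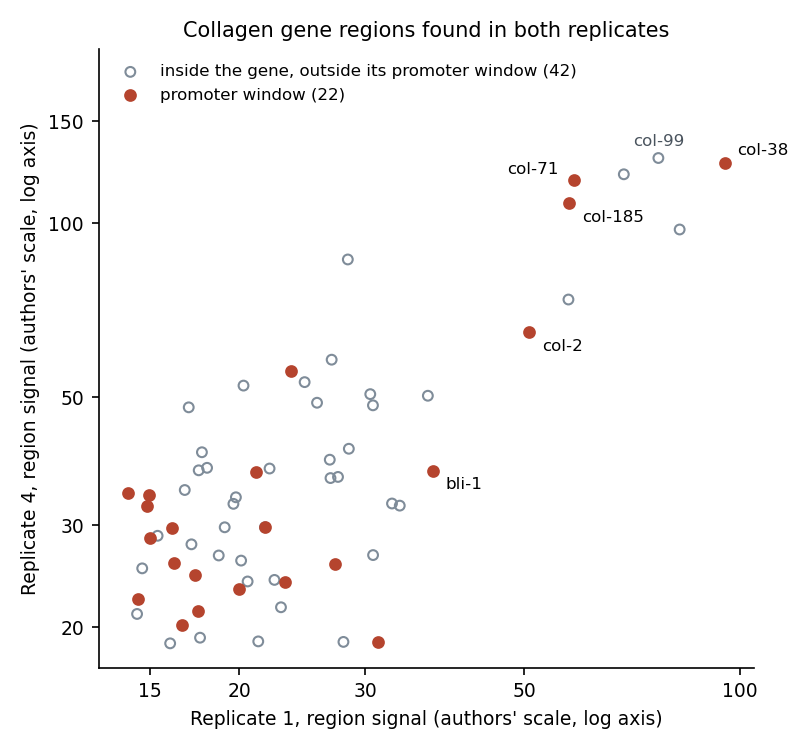
Signal of each collagen region in replicate 1 (x axis) against replicate 4 (y axis), both on the authors' scale and log axes, for pooled-list regions with a summit within 100 bp in both replicates. The 22 promoter regions are filled and the 42 regions inside a gene and outside its promoter window are open. col-38, col-71, col-185 and col-2 stand above the other promoter regions in both replicates.

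The collagens with known roles in body shape were read next, by the layer they are known to build. The furrow collagens dpy-2, dpy-3, dpy-7, dpy-8, dpy-9 and dpy-10 are needed for the circumferential furrows of the cuticle. In the pooled list 2 of these 6 had a promoter summit, where all genes were at 39.2%. These were dpy-7 (signal 39.5, rank 14355, 394 bp upstream) and dpy-3 (29.8, rank 24273, 15 bp downstream). Each was listed in 1 replicate, at 27.5 in replicate 4 for dpy-7 and at 24.6 in replicate 1 for dpy-3. In replicate 1 alone dpy-8 (15.1, rank 24882) and dpy-9 (17.9, rank 17213) also had a region. No region was found for dpy-2 and dpy-10. Of the 2 strut collagens, bli-2 had no promoter region in any list.

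Of the 10 other body-shape collagens, 7 had a promoter summit in the pooled list, where all genes were at 39.2%, and none ranked above 13044. The highest was sqt-1 (signal 41.4, 881 bp upstream), followed by sqt-3 (37.4, 372 bp upstream of one of its 5′ ends) and dpy-13 (36.8, 225 bp upstream, in a region nearer to zipt-2.2). Then came rol-8 (33.0, 657 bp upstream), dpy-17 (29.2, 179 bp downstream), sqt-2 (28.1, 16 bp downstream) and lon-3 (26.4, 704 bp upstream). Within 100 bp of its pooled summit sqt-1 had no region in either replicate, and sqt-3 had 16.6 in replicate 1 (rank 20336) and 20.1 in replicate 4 (rank 25939). dpy-4, dpy-5 and rol-6 had no pooled promoter region. dpy-5 had one of 17.8 in replicate 1 alone. rol-6, known for the dominant roller allele used as a transformation marker, had a region of 18.6 in replicate 4 alone, at rank 28910. The adult collagen genes col-19 and col-7 had no promoter region in any of the 4 lists.

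**Figure D4:**
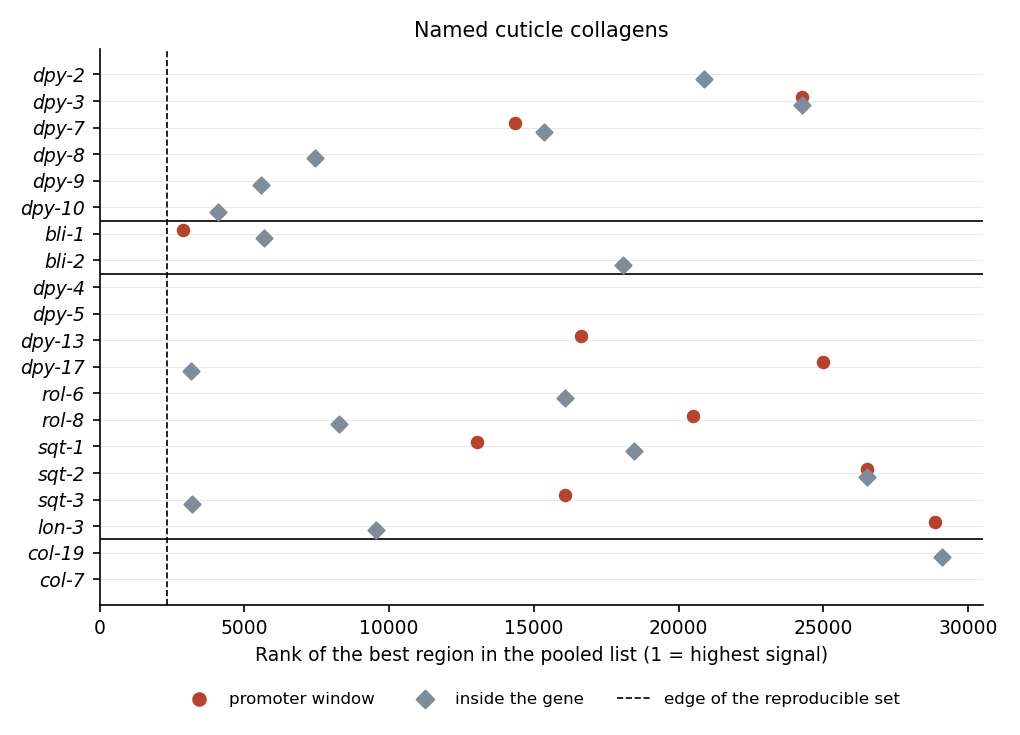
Rank in the pooled list (x axis, 1 is the highest signal) of the best region in the promoter window (circles) and inside the gene (diamonds) for 20 collagens, from top to bottom the furrow, strut, other body-shape and adult-stage collagens. The dashed line is rank 2328, the edge of the reproducible set, and no point lies before it; the circle and diamond of dpy-3 and of sqt-2 are the same region. The circle nearest to it is bli-1 at rank 2888.

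Regions inside the genes gave a different picture from the promoters. In the pooled list 117 collagens (67.2%) had a summit between the ends of the gene, against 45.9% of all genes, although collagens are short, with a median span of 1220 bp against 2027 bp. Among the 5000 strongest regions there were 24 (13.8% against 8.49%), among the 10000 strongest 60 (34.5% against 18.9%) and among the 20000 strongest 92 (52.9% against 34.8%). The replicates gave similar counts, 110 collagens in replicate 1 (63.2% against 48.0%) and 109 in replicate 4 (62.6% against 47.3%). With summits of both replicates within 100 bp, 39 collagens (22.4%) were found, against 15.5% of all genes. In the reproducible set the share was 2.3% (4 collagens), against 3.16%. Counting summits and not genes, collagens held 0.703 pooled summits per kb of gene, and all genes 0.324.

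Most of these summits were in the collagen's own coding sequence, 153 of 183 (83.6%), against 53.9% over all genes. Per kb of coding sequence, collagens held 0.895 pooled summits and all genes 0.455, with 0.696 and 0.351 in replicate 1 and 0.854 and 0.497 in replicate 4. They were weak, with signals from 25.7 to 87.3, a median of 41.8, and none in the reproducible set. The strongest belonged to col-177 (signal 87.3, rank 2567; 26.9 in replicate 1 and 58.0 in replicate 4). Next were col-42 (83.6, rank 2772), dpy-17 (77.7, rank 3173), col-74 (77.5, rank 3186), sqt-3 (77.2, rank 3207) and col-41 (77.1, rank 3226). Within 100 bp, col-42, sqt-3 and col-41 had a match in replicate 4 alone (84.1, 57.0 and 65.6), and dpy-17 and col-74 in both replicates. The col-74 and col-41 summits also lay inside the protein-coding genes gtap-1 and ucr-2.2. These names were taken from the top of the order after the values were seen.

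The coding sequence at the strongest summits of the collagens with phenotypes is shown because it carries the family's repeat. These are 101 bp in the reading direction of the gene, again from RefSeq WBcel235, and capitals mark the in-frame GGN codons, which encode glycine.
dpy-17, chrIII:5107951-5108051, plus strand: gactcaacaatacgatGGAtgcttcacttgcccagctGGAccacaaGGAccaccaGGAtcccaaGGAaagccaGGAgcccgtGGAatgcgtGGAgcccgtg
sqt-3, chrV:12353514-12353614, plus strand: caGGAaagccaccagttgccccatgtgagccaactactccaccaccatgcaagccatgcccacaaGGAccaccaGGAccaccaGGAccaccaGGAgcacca
dpy-10, chrII:6710808-6710908, minus strand: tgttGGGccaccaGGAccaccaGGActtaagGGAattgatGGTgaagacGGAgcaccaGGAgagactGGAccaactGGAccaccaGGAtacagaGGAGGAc

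Of 33 whole codons in each window, GGN made up 8 in dpy-17, 5 in sqt-3 and 12 in dpy-10, and the GC content was 58.4%, 60.4% and 56.4%. The dpy-17 region had 26.8 in replicate 1 and 39.0 in replicate 4. The sqt-3 region had 57.0 in replicate 4 and no match in replicate 1, and the dpy-10 region (pooled signal 68.6, rank 4090) had 20.3 in replicate 1 and 52.3 in replicate 4. All 6 furrow collagens and both strut collagens had a pooled summit inside the gene, as did 7 of the 10 other body-shape collagens, where all genes were at 45.9%. The 3 without one were dpy-4, dpy-5 and dpy-13. For dpy-8 (52.7), dpy-9 (59.4), dpy-10, dpy-2 (32.6), bli-2 (35.3) and rol-6 (37.4) the summit inside was present where the pooled promoter window was empty. Of the adult collagens, col-19 had a region of signal 26.3 near the end of the list, where the gene ZK1193.2 overlaps it, and col-7 had none.

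The collagens' coding sequence was rich in G and C, with a median of 55.08% against 42.5% over all genes. The collagen regions inside genes had a median GC content of 55.8%, the reproducible regions 44.2%, the rest of the pooled list 41.9% and the genome 35.4%. Among genes with a span from 906 to 2965 bp, which covers the collagens' 5th to 95th percentile, 65.6% of collagens and 40.0% of other genes had a pooled summit inside. Split by coding GC, the order of the shares was reversed. From 40 to 45% GC there were 3 collagens, 1 with a summit (33.3%), against 43.1% of other genes. From 45 to 50% GC, 11 of 21 collagens (52.4%) and 61.0% of other genes had a summit. From 50 to 55% these were 36 of 55 (65.5%) and 72.6%, and from 55 to 60% 45 of 61 (73.8%) and 61 of 76 (80.3%). At 60% or more they were 10 of 17 (58.8%) and 8 of 10 (80.0%). At each GC level that held collagens, their share was below that of other genes of this span, with few genes in the lowest and highest of these levels. Span was not matched further within the range. Whether GC content accounts for the summits inside collagens was not tested.

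**Figure D5:**
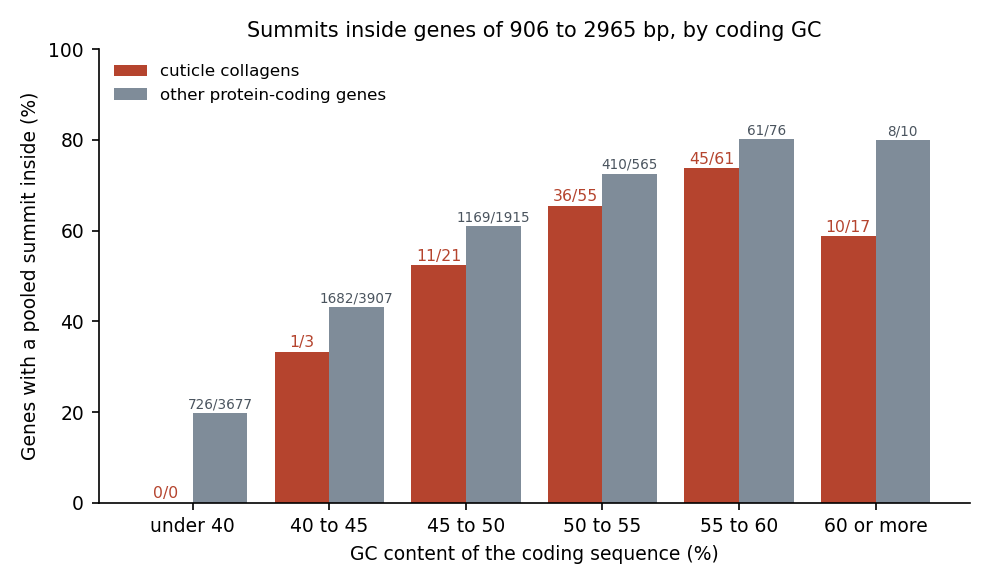
Share of genes with a pooled-list summit inside the gene (y axis, %) by GC content of the coding sequence (x axis, %), for genes of 906 to 2965 bp. Numbers above the bars give genes with a summit over all genes in that range. Other genes were at 19.7% under 40% GC and at 80.3% from 55 to 60% GC, and the collagens were at 33.3% (1 of 3) from 40 to 45% and at 73.8% from 55 to 60%.

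The reproducible summits inside collagens were all outside exons. col-99, which encodes a transmembrane collagen and is in the family here by its name, had the strongest (IV, 143921 to 144024), with a pooled signal of 207 at rank 500, 77.0 in replicate 1 and 130 in replicate 4. It lay 3958 bp downstream of the nearest 5′ end. col-72 had 2, with pooled signals of 188 (II, 3521395 to 3521738; 68.9 and 122 in replicates 1 and 4) and 182 (II, 3523672 to 3523815; 82.4 and 97.5). col-85 had 1 of signal 119 and col-159 had 1 of signal 116, the latter at 28.4 in replicate 1 (rank 4936) and 86.5 in replicate 4 (rank 1209). With piRNA genes set aside, no other gene was annotated at these 5 summits. The col-99 and col-72 regions had signals between those of col-38 and col-71, and the col-85 and col-159 regions were below col-2.

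Position in the genome was compared by chromosome. The share of collagens with a pooled promoter summit was 7 of 22 on I (31.8%, against 45.8% of all genes there), 14 of 32 on II (43.8% against 39.3%), 8 of 13 on III (61.5% against 46.4%), 18 of 44 on IV (40.9% against 35.4%), 11 of 33 on V (33.3% against 33.7%) and 11 of 30 on X (36.7% against 39.4%). Reproducible promoter summits were on II (2), IV (1) and X (1). Of the 53 collagens with another collagen's 5′ end within 5 kb, 18 (34.0%) had a pooled promoter summit and none a reproducible one, against 51 (42.1%) and 4 of the 121 others. All genes were at 39.2% and 8.47%, and 4 reproducible collagens are too few to tell these classes apart.

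Genes that process collagen or regulate the epidermis were read beside the family. Of 25 genes of collagen processing and other cuticle functions, 1 had a reproducible promoter summit, where all genes were at 8.47%, and 10 a pooled one, where all genes were at 39.2%. The one in the reproducible set was pdi-2, which encodes protein disulfide isomerase, the subunit shared by the prolyl 4-hydroxylases that modify collagen. Its summit was 43 bp upstream, with a pooled signal of 241 at rank 335, 99.2 in replicate 1 and 147 in replicate 4. This was above every collagen promoter. Outside the reproducible set came dpy-11, for a thioredoxin-like protein (signal 85.7). Its summit lay inside the gene, 217 bp upstream of one of its 5′ ends. Next were mlt-7, for a haem peroxidase of cuticle crosslinking (80.4, 276 bp upstream), and noah-2, for a zona pellucida domain protein of the apical matrix (44.0, 25 bp downstream).

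Among 8 epidermal and moulting regulators, 6 had a pooled promoter summit and none a reproducible one, against the same 39.2% and 8.47% of all genes. The strongest in the promoter was at the nuclear receptor gene nhr-23, which drives moulting. Its signal was 80.8, and 74.5 in replicate 4, with the summit 85 bp upstream of one of its 5′ ends. In replicate 1 the best nhr-23 window region had 14.4 (rank 27432), with its summit 42 bp downstream of a 5′ end. Next were nhr-25 (57.4, 153 bp downstream) and the period homologue lin-42 (52.3, 632 bp upstream). All 8 had a pooled summit inside the gene, against 45.9% of all genes, and 2 a reproducible one, against 3.16%. These were lin-42, with a pooled signal of 178 at rank 681, and lin-29, a zinc finger gene of the larval-to-adult switch, with 99.6 at rank 2025. Both are long (II, 1233236 to 1252359 and II, 11917642 to 11935343), where all genes had a median span of 2027 bp. Gene span was not matched for this list or the lists that follow. For nhr-23 and nhr-25 the best region inside the gene was the promoter region named above. Of the cuticle and processing genes, 21 of 25 had a pooled summit inside the gene and none a reproducible one. Of 4 other collagens, let-2 of the type IV basement membrane collagen had a pooled promoter summit (40.2, 139 bp upstream), and emb-9, cle-1 and mec-5 had none. All 4 had a pooled summit inside the gene, the strongest at mec-5 (86.9).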

How the data were processed

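ChIP-seq of 1 group with 2 biological replicates was read from 4 lists of regions on build ce11, per the labels. The authors deposited a signal value for each region, of unstated scale, and a −log10 q value. Per the descriptions beside the sample files, each list drew on the alignments and a control that was not analysed here. The sources used here do not name an aligner, a region caller or the IDR threshold. Genes came from Ensembl release 115 and sequence from RefSeq WBcel235, the same assembly as ce11. The 5′ ends of every annotated transcript of a protein-coding gene were used, and a summit counted for each gene whose window held it. Coordinates count from 1.

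The members and lists were chosen with earlier results of these data known, and regions inside genes, GC content, GATAA, divergent neighbours and clusters were added after the data were seen. Collagens and all genes are given side by side as counts, without a test, since 1 group allows no comparison and genes are not replicates. The rule for naming genes took those with a reproducible promoter summit, the next 10 by pooled signal and the 18 with phenotype names. It also took col-19, col-7, and up to 3 in each further list. Genes outside that rule were named too, from the strongest regions of a replicate, from summits inside genes and among the other collagens. Summit assignment was tested on simulated data. Tables were made with pandas 2.3.3 and numpy 2.4.6 under Python 3.11.15, the rank correlation with scipy 1.17.1, and plots with matplotlib 3.10.9. Alternatives covered the window, the list length, the match distance, the motif and each replicate alone.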

Additional observations from a re-analysis of the deposited data

How the results depend on the processing

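Shares of all genes under the same setting stand in brackets. The count of 4 collagens with a reproducible promoter summit was 3 with 500 bp upstream (6.64%) and 6 with 2000 bp upstream (11.2%). It was 1 with the nearest 5′ end only (6.28%). In the equally long top of a single replicate list it was 6 each time (8.08% without replicate 1 and 8.47% without replicate 4). It was 3 without regions near tRNA genes (8.17%) and 4 among genes with 1 annotated 5′ end (6.76% of such genes), both settings chosen after the data were seen. The pooled promoter count of 69 was 17 in the 10000 strongest regions (20.2%). It was 73 without replicate 1 (37.8%) and 69 without replicate 4 (42.6%). The count of 21 in both replicates was 13 within 50 bp (13.6%) and 6 in the 10000 strongest regions of each (10.7%). AAGTG was at 1 reproducible collagen summit (28.2% of all reproducible promoter summits) and CAAGTG at 0 of 4 (11.4% of all reproducible promoter summits). The 117 collagens with a summit inside the gene were 60 in the 10000 strongest regions (18.9%) and 111 outside the own promoter window (41.1%). They were 109 without replicate 1 (47.3%) and 110 without replicate 4 (48.0%). The cause of the difference between the pooled list and single replicates was not tested. No paired analysis was possible because there was 1 group. The lists hold no read counts, so depth limits could not be given.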
